A study of Mus musculus with 2 samples.

Results

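The genes studied here belong to families that move ions, bicarbonate and water across the cells that line the uterus, or that serve this transport. They were compared between a Mettl14 d/d and a Mettl14 f/f mouse uterus on gestational day 4. The set holds the 107 genes, of 55363 in the deposited files, whose symbol names an aquaporin (Aqp), an epithelial sodium channel subunit (Scnn1), the chloride channel Cftr, a Clca protein, an anoctamin (Ano), a sodium pump subunit (Atp1a, Atp1b) or FXYD regulator, a transporter of the Slc4, Slc9, Slc12 or Slc26 family, or a carbonic anhydrase (Car). The rule reads symbols and no measured value, although it was set with earlier results of these data known. No symbol was shared by more than 1 row among them, and 105 of the 107 are annotated as protein-coding. The exceptions are the pseudogenes Aqp10-ps and Clca4c-ps. Not all members carry ions or water themselves, since carbonic anhydrases are enzymes and FXYD proteins are regulators. The symbol rule also takes in the scaffolds Slc9a3r1 and Slc9a3r2 and the adaptor Slc4a1ap, which are not transporters.

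Total RNA of whole uterus was sequenced from 1 d/d and 1 f/f library, so the data hold 1 library per genotype and no value below has a replicate error. By the usual notation the d/d uterus carries deleted alleles of Mettl14, which encodes a subunit of the m6A RNA methyltransferase, and the f/f uterus carries the floxed alleles and serves as the control. The females of both groups were 6 to 8 weeks old and had been mated with fertile males, and the day of the vaginal plug counted as day 1. The Cre driver, the cells in which the deletion took place and the number of animals behind each library were not given in the sources used here.

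Fluid in the uterine lumen is set by the balance of secretion and absorption across the epithelium. The sodium pump in the basolateral membrane drives both directions. In secretion, Slc12a2 loads chloride into the cell and apical channels such as Cftr and Ano1 release it, while carbonic anhydrases, Slc4 and Slc26 transporters supply and exchange bicarbonate. In absorption, the epithelial sodium channel takes up sodium at the apical face, and water follows through aquaporins. In rodents, estrogen is known to favour fluid accumulation, and progesterone to favour the loss of luminal fluid before the embryo attaches.

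Levels are given in FPKM, fragments per kilobase of transcript, scaled to library size, which makes levels of different genes comparable per unit length. Differences are given as the log2 ratio (d/d over f/f) on FPKM + 1, a scale that understates the change of genes at low levels. A gene counts as measured at 1 FPKM or more in at least 1 library, and as called higher or lower in d/d where the log2 ratio is at least 1 in size. Such a call compares these libraries and carries no test. Depth, read from the smallest steps of the values, was about 20900000 fragments in the d/d and 17800000 in the f/f library. Mettl14 itself was 3.21 FPKM in d/d and 13.6 FPKM in f/f.

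Of the 107 members, 69 were measured, and 15 of them were higher in d/d, 12 lower and 42 called in neither direction. The share higher was 21.7%, where 10.2% of all 16263 measured genes and 9.45% of the 13768 protein-coding ones were higher. The share lower was 17.4%, against a background of 8.28% of all measured genes and 7.92% of protein-coding ones. In either direction, 39.1% of the members were called, against 18.4% of all measured genes and 17.4% of protein-coding ones. The median log2 ratio of the measured members was -0.05, close to the median of all genes, -0.01, and 34 ratios lay above 0 and 35 below it. The transport genes therefore differed in both directions with no shift of their middle. Of the 15 higher members, 9 were measured through the d/d library alone, and of the 12 lower members, 4 through the f/f library alone. Either by itself favours a call. Among the 50 members at 1 FPKM or more in both libraries, 6 were higher and 8 lower, that is 12% and 16%, beside 7.93% and 5.78% of all genes that met the same condition.

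**Figure D1:**
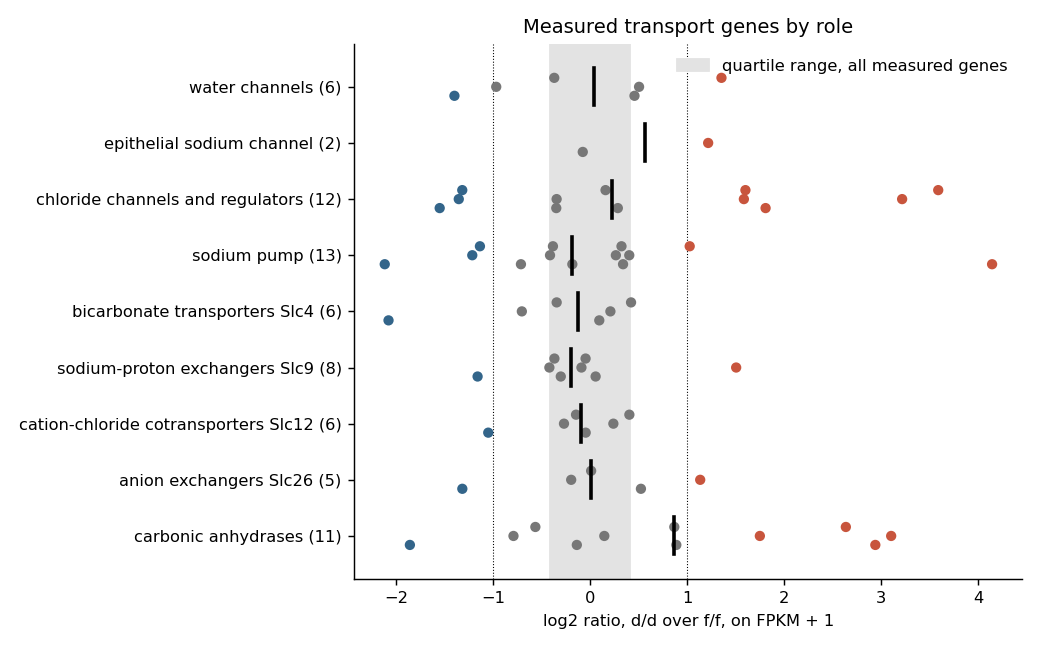
The log2 ratio (d/d over f/f) on FPKM + 1 is plotted for the 69 measured transport genes by role, 1 point per gene, with the number measured in brackets, a black bar at each median, dotted lines at -1 and 1 and a grey band over the quartile range of all 16263 measured genes, -0.41 to 0.41. Carbonic anhydrases and the group of chloride channels and regulators held the most genes to the right of the band. Of the 6 measured Slc12 genes, 5 lay within it.

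Summed over all 107 genes, the level was 2225 FPKM in d/d and 1684 FPKM in f/f. The sodium pump group held most of it, at 1167 FPKM in d/d and 974 FPKM in f/f. Carbonic anhydrases alone summed to 454 FPKM in d/d and 109 FPKM in f/f. Chloride channels and their regulators summed to 126 FPKM in d/d and 121 FPKM in f/f, although 8 of 12 measured genes were called. That share was 66.7%, beside 18.4% of all measured genes. The 5 higher ones, Cftr, Clca1, Ano4, Ano9 and Ano5, were under 1 FPKM in f/f and so were measured through d/d alone. Clca2, a lower one, was measured through f/f alone. Being measured through 1 library by itself favours a call.

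**Figure D2:**
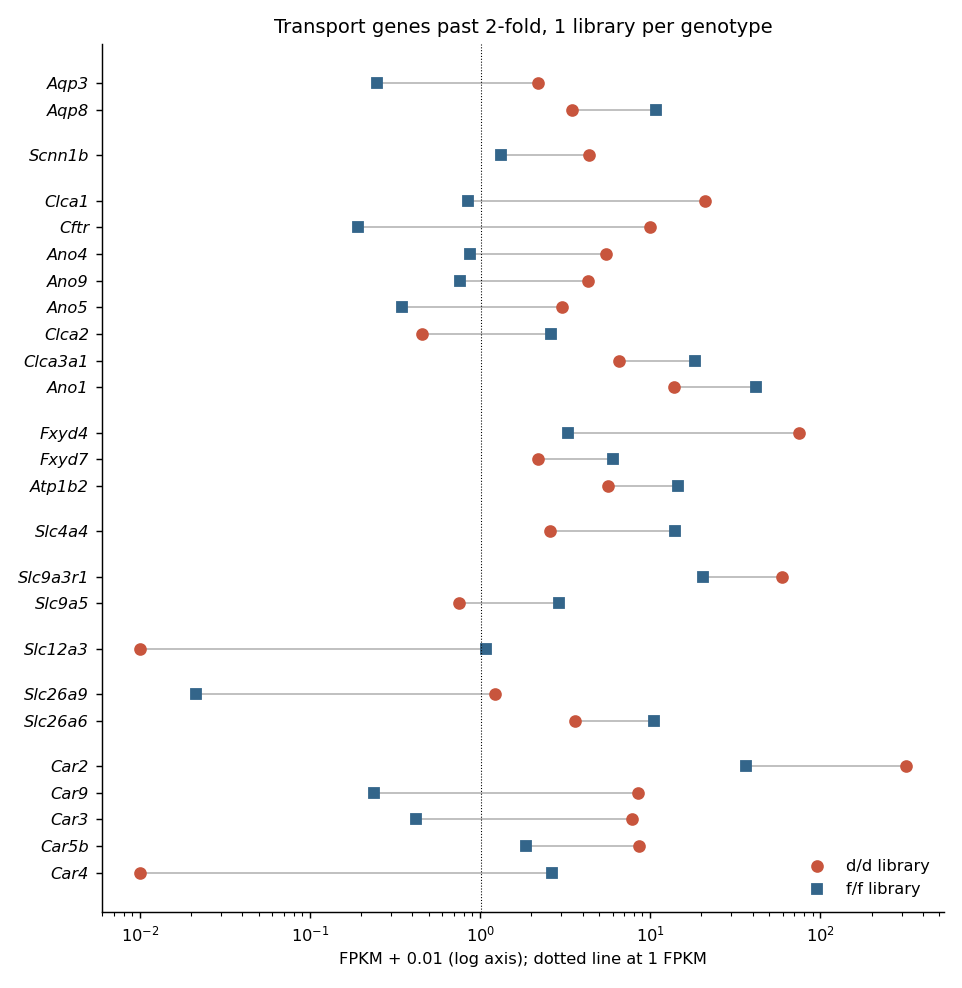
Levels of 25 of the 27 called transport genes are plotted on a log axis of FPKM + 0.01, grouped by role from water channels at the top to carbonic anhydrases at the bottom, with circles for the d/d library, squares for the f/f library and a dotted line at 1 FPKM. Cftr, Clca1, Fxyd4, Car2 and Car9 show wide gaps with d/d to the right, and Car4 and Slc12a3 sit at the left edge in d/d, where they are listed at 0.

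Among chloride channels and their regulators, the channel Cftr and the regulator Clca1 were higher in d/d and the channel Ano1 was lower. Cftr, the cAMP-regulated apical chloride and bicarbonate channel, was 9.98 FPKM in d/d and 0.182 FPKM in f/f, 54.7-fold higher with a log2 ratio of 3.22. The f/f value stands for about 20.8 fragments over the longest annotated transcript of 6410 nt, and the d/d value for about 1337. Ano1, the calcium-activated chloride channel also called TMEM16A, was 13.7 FPKM in d/d and 42.1 FPKM in f/f, 3.07-fold lower (log2 ratio -1.55). Ano1 stood above Cftr in both libraries, at 1.37 times its level in d/d and at 231 times in f/f. A log2 ratio at or above that of Cftr was found in 143 of the 16263 genes, Cftr included.

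The other anoctamins split into higher and steady members. Ano4 was 5.50 FPKM in d/d and 0.857 FPKM in f/f, a log2 ratio of 1.81. Ano9 was 4.32 FPKM in d/d and 0.753 FPKM in f/f, a log2 ratio of 1.60. Ano5, a gene best known for its role in skeletal muscle, was 3.01 FPKM in d/d and 0.336 FPKM in f/f, a log2 ratio of 1.58. All of these were under 1 FPKM in f/f. Ano6, a calcium-activated lipid scramblase, led the family in d/d at 31.9 FPKM, against 26.0 FPKM in f/f. Ano10 was 20.1 FPKM in d/d and 17.9 FPKM in f/f, and Ano8 was 5.66 FPKM in d/d and 7.49 FPKM in f/f, so neither was called. Ano1 made up 16.1% of the summed anoctamin level in d/d and 43.8% in f/f. Ano2, Ano3 and Ano7 stayed under 1 FPKM in both libraries.

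The Clca proteins are secreted or surface proteins, of which human CLCA1 is known to raise the calcium-activated chloride current through TMEM16A. Clca1 was 21.03 FPKM in d/d and 0.833 FPKM in f/f, 25.2-fold higher (log2 ratio 3.59). The ratios of Clca3a1 and Clca2 had the opposite sign. Clca3a1 was 6.54 FPKM in d/d and 18.3 FPKM in f/f, a log2 ratio of -1.35, and Clca2 was 0.443 FPKM in d/d and 2.60 FPKM in f/f, a log2 ratio of -1.32. Clca3a2 was 1.91 FPKM in d/d and 2.70 FPKM in f/f and was not called. The leading Clca gene was therefore Clca1 in d/d, with 69.0% of the family's sum, and Clca3a1 in f/f, with 74.8%. Clca3b was 0.547 FPKM in d/d and listed at 0 in f/f, and Clca4a and Clca4b were listed at 0 in both libraries. Clca3a1, Clca3a2 and Clca3b are close relatives, between which the authors' estimate may have shared fragments.

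The promoters of the chloride channels with opposite signs are shown because both carry the GC box that Sp and Klf factors can bind, a motif common in promoters. Each run gives the 250 bases before the RefSeq start on GRCm38.p6, 5′ to 3′ in the direction of the gene, with GC boxes in capitals. The Cftr run is chr6:18170437-18170686 on the plus strand, and the Ano1 run is chr7:144738574-144738823 on the minus strand. The GENCODE M21 annotation places Ano1 at 144588549 to 144751974, so the Ano1 run lies within the annotated gene, before an internal start.
Cftr: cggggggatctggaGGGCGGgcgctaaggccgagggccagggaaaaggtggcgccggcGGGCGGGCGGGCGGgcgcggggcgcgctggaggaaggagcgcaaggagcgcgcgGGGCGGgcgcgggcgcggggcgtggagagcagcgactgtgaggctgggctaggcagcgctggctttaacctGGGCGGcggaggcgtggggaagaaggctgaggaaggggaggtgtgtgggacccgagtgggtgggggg
Ano1: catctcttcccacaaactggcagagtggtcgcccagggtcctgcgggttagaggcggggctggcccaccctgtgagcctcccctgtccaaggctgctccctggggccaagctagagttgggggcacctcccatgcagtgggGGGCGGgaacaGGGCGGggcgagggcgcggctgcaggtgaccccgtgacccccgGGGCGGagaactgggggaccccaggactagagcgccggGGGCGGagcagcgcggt
The Cftr run held 6 matches to GGGCGG, of which 3 overlap by 2 bases each, and the Ano1 run held 4. G and C made up 76.4% of the Cftr run and 72% of the Ano1 run, against a median of 52.4% over all promoters of the table.

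Of the sodium pump, the beta subunits, which carry the pump to the surface, are described here. Among them Atp1b3 was the most abundant at 156.4 FPKM in d/d and 124.9 FPKM in f/f. Atp1b1, the usual beta subunit of epithelia, was 30.0 FPKM in d/d and 34.2 FPKM in f/f, and neither gene was called. Atp1b2, a beta isoform first known from glia, was 5.67 FPKM in d/d and 14.5 FPKM in f/f, a log2 ratio of -1.21. Atp1b2 was thus the called beta subunit. Of the muscle and nerve genes used as markers, 2 of the 8 for smooth muscle were lower in d/d and 0 higher, with sums of 3218 FPKM in d/d and 4920 FPKM in f/f and none at 0. Of 8 nerve and Schwann cell genes, 5 were measured, 1 was higher and 2 were lower, with sums of 15.3 FPKM in d/d and 23.3 FPKM in f/f, and Snap25 and Prph were listed at 0 in d/d. In a whole tissue, fewer cells of a type and less RNA per cell cannot be told apart, and the part of these cells in the Atp1b2 value was not tested.

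FXYD proteins are small single-pass regulators of the pump. Fxyd4, known from kidney collecting duct and colon, where it raises the pump's affinity for sodium, was 74.5 FPKM in d/d and 3.27 FPKM in f/f. This was 22.7-fold higher, with a log2 ratio of 4.14 that was the largest of the 107 members in size and was reached by 69 of the 16263 genes, itself included. Fxyd7, a brain FXYD gene, was 2.19 FPKM in d/d and 6.01 FPKM in f/f, a log2 ratio of -1.14. The most abundant FXYD genes were not called. Fxyd3 was 284 FPKM in d/d and 215 FPKM in f/f, and Fxyd5 was 131 FPKM in d/d and 175 FPKM in f/f. Fxyd1, the phospholemman of muscle, was 98.3 FPKM in d/d and 162 FPKM in f/f. Fxyd6 was 43.7 FPKM in d/d and 57.3 FPKM in f/f, and Fxyd2, the gamma subunit of kidney, was 5.87 FPKM in d/d and 4.72 FPKM in f/f. The FXYD sum was 640.1 FPKM in d/d and 623 FPKM in f/f, while the share of Fxyd4 in it was 11.6% in d/d and 0.525% in f/f. Its upstream run, chr6:117937336-117937585 on the minus strand of GRCm38.p6, is shown as that of the member with the largest ratio and holds 1 GC box, in capitals.
Fxyd4: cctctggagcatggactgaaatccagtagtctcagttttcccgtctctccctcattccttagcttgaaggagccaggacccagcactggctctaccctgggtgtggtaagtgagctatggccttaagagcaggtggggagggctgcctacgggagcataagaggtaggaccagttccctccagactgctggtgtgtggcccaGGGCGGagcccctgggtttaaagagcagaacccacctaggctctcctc

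**Figure D3:**
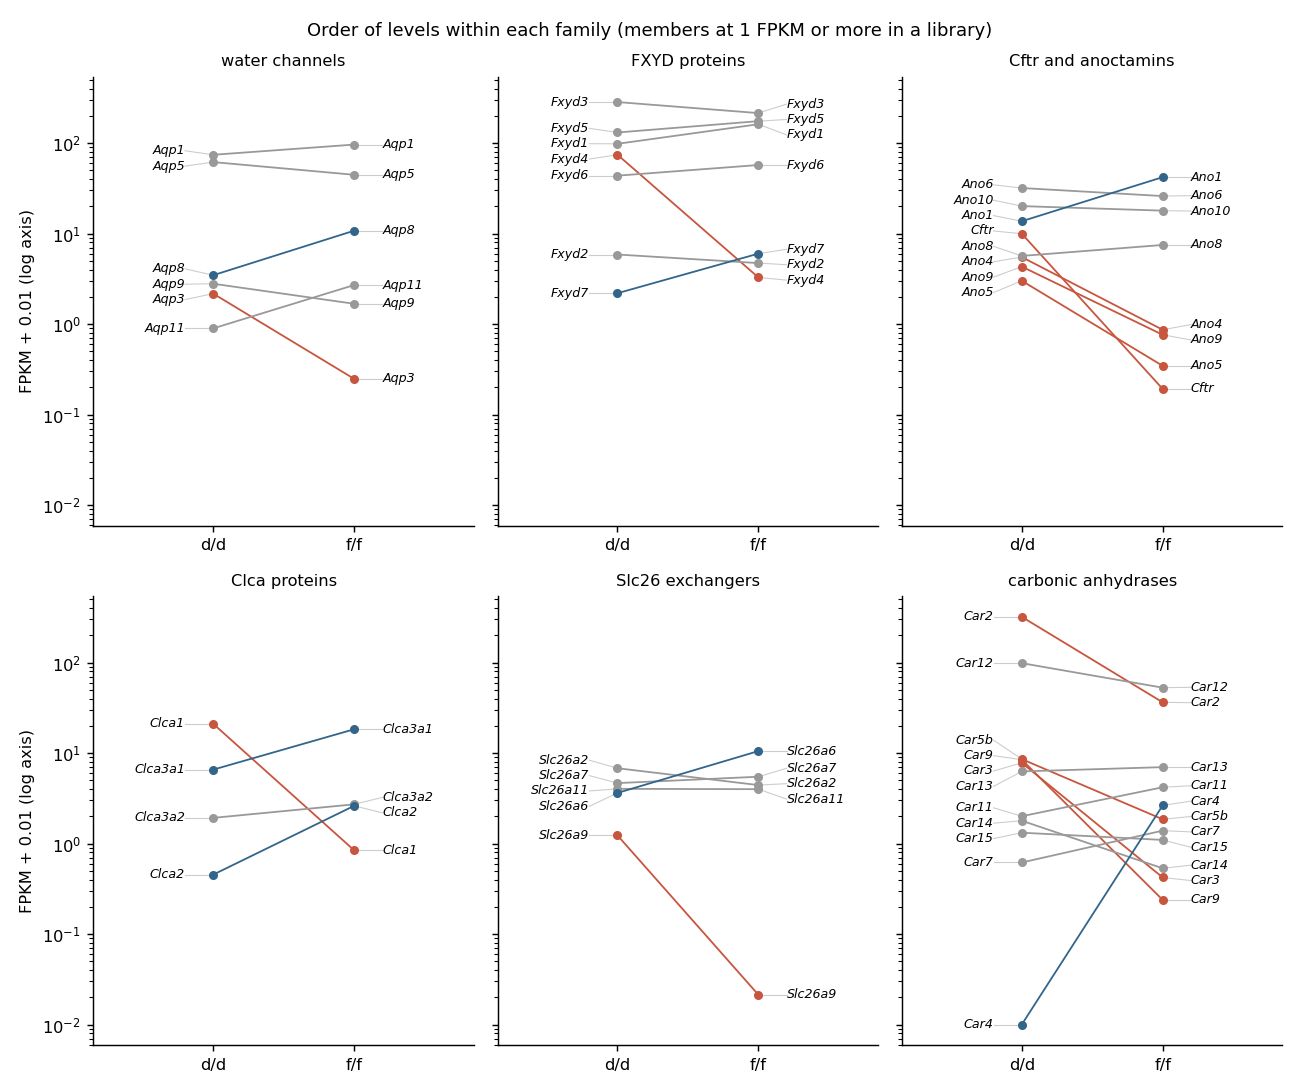
Levels in the d/d library (left) and the f/f library (right) are joined by 1 line per gene on a log axis of FPKM + 0.01, in 6 families, with genes called higher in d/d in red, genes called lower in blue and the others in grey. Lines cross in all 6 panels. Clca1, Fxyd4 and Car2 overtake in d/d relatives that stand above them in f/f. In the other panels Ano6 likewise overtakes Ano1, Slc26a2 overtakes Slc26a6 and Aqp9 overtakes Aqp11.

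Carbonic anhydrases, which interconvert carbon dioxide and bicarbonate, included 4 higher and 1 lower gene of 11 measured, that is 36.4% and 9.09%, beside 10.2% and 8.28% of all measured genes. Their median log2 ratio was 0.87, beside -0.01 over all genes. Of the 4 higher genes, Car9 and Car3 were under 1 FPKM in f/f and so were measured through the d/d library alone. Car2, the fast cytosolic form, was 319 FPKM in d/d and 36.3 FPKM in f/f, 8.80-fold higher (log2 ratio 3.10). It held 70.3% of the family's summed level in d/d and 33.4% in f/f. Car12, a membrane-bound form with an outward active site, was 98.3 FPKM in d/d and 52.7 FPKM in f/f, a log2 ratio of 0.89 that was not called. Car12 stood above Car2 in f/f and below it in d/d.

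Car9, the membrane-bound form known as a hypoxia-induced gene, was 8.42 FPKM in d/d and 0.228 FPKM in f/f, 36.9-fold higher (log2 ratio 2.94), and its f/f value stands for about 8.22 fragments. Car4, a membrane-anchored form known from capillaries and some epithelia, was listed at 0 in d/d and was 2.62 FPKM in f/f, a value of about 58.7 fragments. The membrane-bound forms thus went in both directions. Car14 was 1.78 FPKM in d/d and 0.522 FPKM in f/f, and Car15 was 1.31 FPKM in d/d and 1.09 FPKM in f/f. Of 8 endothelial marker genes, 4 were lower in d/d and none higher, with sums of 187 FPKM in d/d and 382 FPKM in f/f and none at 0. Their part in the Car4 value was not tested. Car9 is also the only called member with a RefSeq promoter entry whose upstream run holds the AP-1 motif TGANTCA, in capitals below, in chr4:43506776-43507025 on the plus strand of GRCm38.p6.
Car9: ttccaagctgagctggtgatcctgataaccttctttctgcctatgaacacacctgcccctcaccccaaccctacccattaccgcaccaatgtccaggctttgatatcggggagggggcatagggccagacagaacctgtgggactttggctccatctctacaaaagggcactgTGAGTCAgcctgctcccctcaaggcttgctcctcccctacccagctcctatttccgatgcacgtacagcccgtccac

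Car5b, a mitochondrial form, was 8.55 FPKM in d/d and 1.84 FPKM in f/f, a log2 ratio of 1.75. Car3, a form abundant in fat, liver and slow muscle, was 7.77 FPKM in d/d and 0.412 FPKM in f/f, a log2 ratio of 2.64. Fat-cell markers were also at higher levels in d/d. Of 8 fat-cell markers, 5 were measured and all 5 were higher, with sums of 114 FPKM in d/d and 3.92 FPKM in f/f, and 4 of the 8 were listed at 0 in f/f, Plin1, Lep, Cidec and Retn. Aqp7, the glycerol channel of fat cells, was 0.0231 FPKM in d/d and listed at 0 in f/f. Skeletal muscle markers went the other way, with 4 of 4 measured genes lower and sums of 18.1 FPKM in d/d and 129 FPKM in f/f over the 7 listed, of which Myh1 and Myh4 were listed at 0 in both. The part of fat in the Car3 value was not tested. Car13, a cytosolic form, was 6.25 FPKM in d/d and 6.97 FPKM in f/f. Car11, which lacks the catalytic site, was 1.99 FPKM in d/d and 4.17 FPKM in f/f, a log2 ratio of -0.79, and passed the call with a pseudocount of 0.1 FPKM (-1.03). Car1, a red cell form, was listed at 0 in both libraries.

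Of 6 measured genes of the Slc4 family of bicarbonate carriers, 1 was called, a share of 16.7% that is near the 18.4% of all measured genes. Slc4a4, the sodium bicarbonate cotransporter NBCe1 that brings bicarbonate into many secretory epithelia, was 2.55 FPKM in d/d and 14.0 FPKM in f/f, 5.49-fold lower (log2 ratio -2.08). Slc4a2, the chloride and bicarbonate exchanger AE2, was the most abundant at 35.4 FPKM in d/d and 30.5 FPKM in f/f. Slc4a7, the sodium bicarbonate cotransporter NBCn1, was 7.51 FPKM in d/d and 9.81 FPKM in f/f, so that it stood above Slc4a4 in d/d and below it in f/f. Slc4a3, the exchanger AE3, was 10.5 FPKM in d/d and 7.59 FPKM in f/f, and the adaptor Slc4a1ap was 16.8 FPKM in d/d and 15.7 FPKM in f/f. Slc4a1, the red cell band 3 exchanger, was listed at 0 in d/d and was 0.368 FPKM in f/f. None of 5 measured red cell markers was called, with sums of 486 FPKM in d/d and 573 FPKM in f/f over the 9 listed, of which Epb42 was listed at 0 in d/d.

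Anion exchangers of the Slc26 family included 1 higher and 1 lower member of 5 measured. Each was a share of 20%, beside 10.2% higher and 8.28% lower among all measured genes. The higher one, Slc26a9, was measured through the d/d library alone. Slc26a6, an apical exchanger of chloride for bicarbonate and oxalate, was 3.61 FPKM in d/d and 10.5 FPKM in f/f, 2.91-fold lower (log2 ratio -1.32). Slc26a9, a chloride transporter and channel known to interact with Cftr, was 1.22 FPKM in d/d, about 121 fragments, and 0.0113 FPKM in f/f, about 0.955 of a fragment, for a log2 ratio of 1.13. Slc26a6 led the family in f/f, whereas in d/d the sulfate transporter Slc26a2 did, at 6.78 FPKM against 4.41 FPKM in f/f. Slc26a7 was 4.64 FPKM in d/d and 5.46 FPKM in f/f, and Slc26a11 was 4.01 FPKM in d/d and 3.97 FPKM in f/f. Slc26a4, pendrin, stayed under 1 FPKM, at 0.851 FPKM in d/d and 0.757 FPKM in f/f, and Slc26a3 was listed at 0 in both libraries.

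Chloride loading and cell volume carriers of the Slc12 family differed little in level. Slc12a2, the basolateral cotransporter NKCC1, was 29.9 FPKM in d/d and 25.2 FPKM in f/f, a log2 ratio of 0.24. The potassium chloride cotransporters Slc12a4 and Slc12a7 had log2 ratios of -0.05 and -0.15. Slc12a4 was 17.9 FPKM in d/d and 18.6 FPKM in f/f. Slc12a7 was 9.30 FPKM in d/d and 10.4 FPKM in f/f. Of 6 measured members 1 was called, a share of 16.7% beside 18.4% of all measured genes. This was Slc12a3, the thiazide-sensitive cotransporter of kidney, listed at 0 in d/d and at 1.07 FPKM in f/f. It was just past the filter and the call, at a log2 ratio of -1.05.

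The Slc9 family of sodium-proton exchangers held 2 called genes of 8 measured, the scaffold Slc9a3r1 and the exchanger Slc9a5. That share was 25%, beside 18.4% of all measured genes, and Slc9a5 was measured through the f/f library alone. Slc9a3r1, also called NHERF1, which ties Cftr and other apical transporters to the cytoskeleton through ezrin, was 59.6 FPKM in d/d and 20.4 FPKM in f/f, 2.93-fold higher (log2 ratio 1.50). Its relative Slc9a3r2 was 51.7 FPKM in d/d and 69.5 FPKM in f/f and was not called, so the order of the scaffolds differed between the libraries. Slc9a8, an exchanger of intracellular membranes and some apical ones, was 7.16 FPKM in d/d and 9.07 FPKM in f/f. Slc9a5 was 0.736 FPKM in d/d and 2.88 FPKM in f/f, a log2 ratio of -1.16. Slc9a3, the apical exchanger of absorptive epithelia, was listed at 0 in both libraries, and Slc9a2 was 0.146 FPKM in d/d and 0.868 FPKM in f/f.

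Sodium channel subunits did not differ alike. Scnn1b, the beta subunit, was 4.37 FPKM in d/d and 1.31 FPKM in f/f, 3.33-fold higher (log2 ratio 1.22). Scnn1a, the alpha subunit needed for the channel's current, was 0.913 FPKM in d/d and 1.02 FPKM in f/f. Scnn1g, the gamma subunit, was 0.0319 FPKM in d/d and 0.205 FPKM in f/f. Scnn1b stood at 4.79 times the level of Scnn1a in d/d and at 1.29 times its level in f/f.

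Among water channels, the abundant Aqp1 and Aqp5 were not called. Aqp1, known from endothelium and red cells, was 74.4 FPKM in d/d and 96.4 FPKM in f/f, a log2 ratio of -0.37. Aqp5, an apical channel of secretory glands, was 61.8 FPKM in d/d and 44.7 FPKM in f/f, a log2 ratio of 0.46. Aqp8, a channel for water and ammonia, was 3.46 FPKM in d/d and 10.8 FPKM in f/f, 3.11-fold lower (log2 ratio -1.40). Aqp3, a basolateral channel for water and glycerol, was 2.17 FPKM in d/d and 0.239 FPKM in f/f, a log2 ratio of 1.35, with about 7.51 fragments behind the f/f value. Aqp11, an intracellular channel, was 0.888 FPKM in d/d and 2.69 FPKM in f/f. Its log2 ratio of -0.97 missed the call narrowly and passed it at -1.50 with a pseudocount of 0.1 FPKM. Aqp9 was 2.79 FPKM in d/d and 1.67 FPKM in f/f. Aqp2, Aqp4, Aqp6 and Aqp12 stayed under 1 FPKM in both libraries.

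Members under 1 FPKM in both libraries numbered 38. Of these, 13 were listed at 0 in both libraries, 5 in d/d alone and 5 in f/f alone, and 15 were above 0 in both.

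Members that neighbour each other on a chromosome did not share a direction throughout. Gene positions are those of GENCODE M21 on GRCm38, also called mm10. The 8 Clca genes lie on the minus strand of chromosome 3 within 370 kb, from 144729677 to 145099443. Clca1, at 145003817 to 145032776, was higher in d/d, and its measured neighbour Clca2, at 145070263 to 145099443, was lower. Car13, Car1, Car3 and Car2 lie on the same chromosome from 14641727 to 14900770. Car3 and Car2, the last of them, were both higher, whereas Car13 had a log2 ratio of -0.14. Fxyd5, Fxyd7, Fxyd1 and Fxyd3 lie within 44.0 kb of chromosome 7, from 31032722 to 31076704, with log2 ratios of -0.41, -1.14, -0.71 and 0.40. Of Aqp2, Aqp5 and Aqp6, which lie on chromosome 15 from 99579055 to 99605477, Aqp5 alone was measured.

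**Figure D4:**
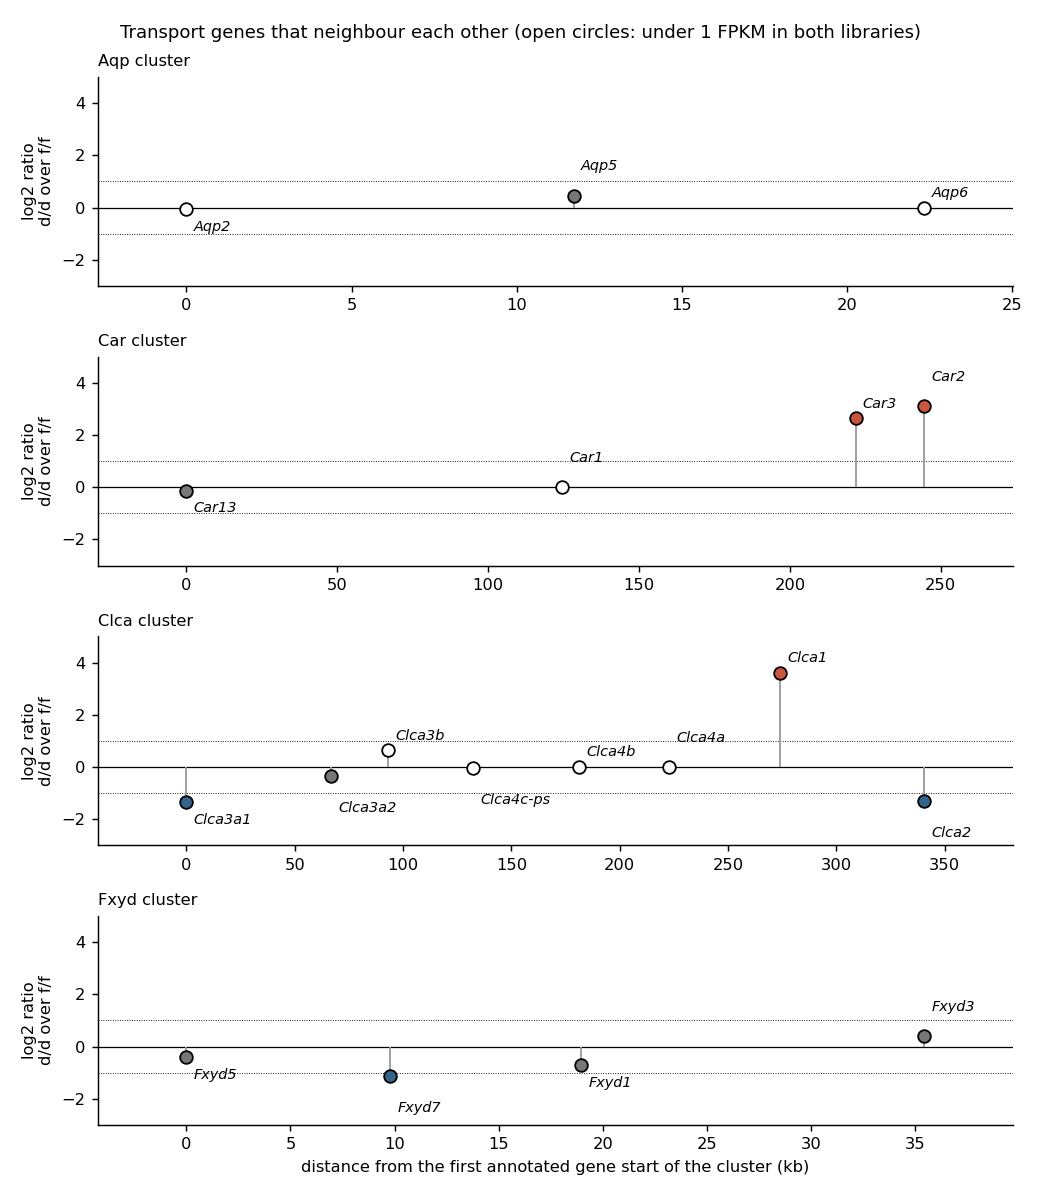
The log2 ratio (d/d over f/f) on FPKM + 1 is plotted against the distance in kb of each annotated gene start from the first of its cluster, for the 4 clusters of at least 3 members, with red for genes called higher in d/d, blue for genes called lower, grey for measured genes that were neither and open circles for genes under 1 FPKM in both libraries. Clca1 at 3.59 stands between relatives at or below 0.63, and Car3 and Car2 stand together at 2.64 and 3.10.

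Promoter motifs were searched on both strands from 250 bases before to 50 bases after the RefSeq start, and 76 of the 107 members had a promoter there, among them 10 of the 15 higher and 9 of the 12 lower ones. Ano9, Atp1b2, Car2, Car3, Clca1 and Fxyd7 were among the called members with no entry. The GC box GGGCGG was in 7 of 10 promoters of higher members (70%) and in 6 of 10 promoters of the 9 lower members (60%). It was in 44.7% of 38 promoters of members that were neither and in 45.3% of all 95 member promoters. Over all 32851 promoters the share was 35.7%. The median G and C share of the 250 upstream bases was 61.2% for higher members, 54.8% for lower ones and 52.4% over all promoters. The part of base content in the GC box shares was not tested. The AP-1 motif TGANTCA was in 1 of 10 promoters of higher members and in none of 10 of lower ones, against 7.81% of all promoters. A full estrogen response element, GGTCA and TGACC with 3 bases between them, was in none of the 95 member promoters and in 0.0700% of all promoters. A progesterone and glucocorticoid response element, GNACA and TGTNC with 3 bases between them, was in 1 member promoter, that of Car14, and in 0.475% of all promoters. A match describes letters in this window and does not show binding, and no match says nothing of elements elsewhere.

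Regulators of these transporters were read from a list of 25 genes, of which 21 were measured. In d/d 6 were higher and 3 lower, that is 28.6% and 14.3%, beside 10.2% and 8.28% of all measured genes, with a median log2 ratio of 0.39 beside -0.01 over all genes. The proteases that activate the sodium channel by cleavage were at higher levels, with St14 (matriptase) at 142 FPKM in d/d and 23.7 FPKM in f/f, and Furin at 73.3 FPKM in d/d and 23.4 FPKM in f/f. Prss8 (prostasin), with a log2 ratio of 0.83, was not called, nor were the protease inhibitors Spint1 and Spint2, at 0.64 and 0.79. Ezr, the ezrin that binds Slc9a3r1, was 141 FPKM in d/d and 35.5 FPKM in f/f, a log2 ratio of 1.95.

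Potassium channels that keep up the driving force for chloride exit differed by gene. Kcnn4 was 25.2 FPKM in d/d and 1.91 FPKM in f/f, 13.2-fold higher (log2 ratio 3.17), and Kcnq1 was 7.35 FPKM in d/d and 2.82 FPKM in f/f. Kcne3, the partner subunit of Kcnq1, was 0.484 FPKM in d/d and 2.17 FPKM in f/f, a log2 ratio of -1.10. A receptor and a ligand upstream of cAMP and cGMP also differed. Adora2b, an adenosine receptor, was 1.30 FPKM in d/d and 8.45 FPKM in f/f. Guca2b, uroguanylin, a peptide that stimulates salt and water secretion in the intestine, was 4.58 FPKM in d/d and 156 FPKM in f/f, 34.2-fold lower (log2 ratio -4.82), while its receptor Gucy2c was listed at 0 in both libraries. The kinases and ligase that set transporter activity had log2 ratios near 0, namely Sgk1 at -0.16, Wnk1 at -0.02, Wnk4 at -0.34, Stk39 at 0.39, Oxsr1 at -0.09 and Nedd4l at 0.19.

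Most general epithelial markers were higher in d/d, whereas the transport members went in both directions. Of 12 general epithelial genes, 11 were higher in d/d and none lower, with a median log2 ratio of 2.69, sums of 2149 FPKM in d/d and 282 FPKM in f/f and none at 0. The labelled tissue was otherwise met by stromal, smooth muscle and endothelial genes in both libraries, none of them at 0. Of 8 uterine gland genes, 5 were lower and none higher, with sums of 26.6 FPKM in d/d and 2286 FPKM in f/f. Prss28 and Spink1 were listed at 0 in d/d, and Prss29 alone held 943 FPKM of the f/f sum. The 3 gland genes not called, Foxa2, Sox9 and Cxcl15, had log2 ratios of -0.42, 0.38 and -0.58. Of 9 stromal genes 5 were lower and none higher, with sums of 2963 FPKM in d/d and 4677 FPKM in f/f. The part of the cell makeup in the transport values was not tested.

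**Figure D5:**
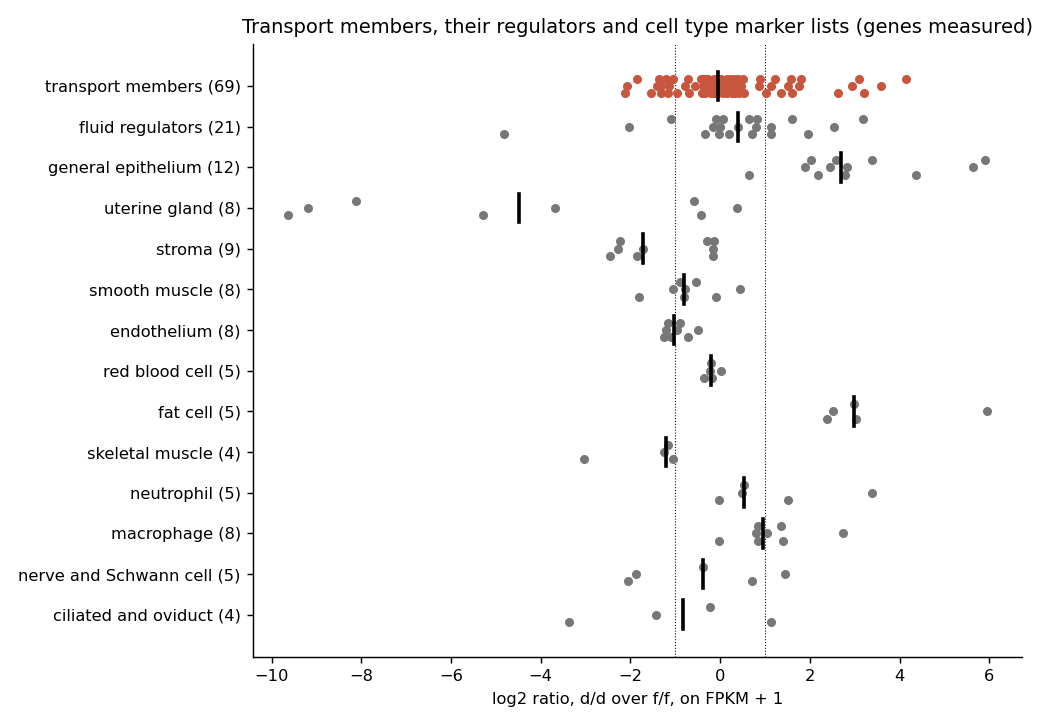
The log2 ratio (d/d over f/f) on FPKM + 1 is plotted for the 69 measured transport members (red), the 21 measured regulators and the measured genes of 12 cell type marker lists (grey), 1 point per gene, with a black bar at each median, the number measured in brackets and dotted lines at -1 and 1. The transport members spread around a median of -0.05, while epithelial and fat-cell markers lie to the right, at medians of 2.69 and 2.98, and gland markers to the left, at -4.49.

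The remaining marker lists completed this check. Of 8 macrophage genes 4 were higher and none lower, with sums of 1776 FPKM in d/d and 792 FPKM in f/f and none at 0. Of 8 neutrophil genes 5 were measured and 2 were higher, with sums of 181 FPKM in d/d and 117 FPKM in f/f. Mmp8 was listed at 0 in d/d, Ly6g was listed at 0 in f/f and Ngp in both. Of 6 ciliated and oviduct genes 4 were measured, 1 was higher and 2 were lower, with sums of 81.0 FPKM in d/d and 110.0 FPKM in f/f, and Dnah5 was listed at 0 in d/d.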

How the data were processed

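Whole uterus of 1 d/d and 1 f/f library was analysed. The deposited values are FPKM per gene, which the authors produced with HISAT2 2.2.1 and Cufflinks 2.2.1 on mm10, per the submitters' processing notes. Strandedness, annotation release and pooling of animals were not given in the sources used here. FPKM depends on an estimated transcript length and on how fragments are shared between gene copies.

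Rows sharing a symbol were summed (55483 rows, 55363 genes). Log2 ratios of d/d over f/f used a pseudocount of 1 FPKM, a filter of 1 FPKM in at least 1 library and a call at a log2 ratio of 1 or more in size. With 1 library per genotype there is no test. Members and lists were chosen with earlier results of these data known. Called members were named, with up to 4 uncalled members of highest mean level per role, and others are named as textbook members. Some genes that this rule names are not reported here.

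Depth was estimated from single-transcript genes of 2000 nt or longer, where 70.5% of 836 low values in d/d and 74.7% of 806 in f/f lay within 0.1 of a whole fragment, against 20% if spread evenly. Fragment numbers behind a value use the longest transcript and are approximate. Annotation was GENCODE M21 (all 107 member IDs matched, and 55137 of 55483 overall). Alternatives were 7 settings planned and 1 added after seeing the data. No called member has a transcript under 250 nt, and 4 of 27 overlap another gene's exons. Promoters came from RefSeq on GRCm38.p6. The scripts ran in Python 3.11.15 with pandas 2.3.3 and were tested on simulated data.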

Additional observations from a re-analysis of the deposited data

How the results depend on the processing

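No paired analysis was possible because each genotype has 1 library. Rescaling to a sum of 1000000 (TPM), rescaling to a median ratio of 0, taking the highest row of a symbol and a pseudocount of 0.1 FPKM left each count of members and regulators within 1.5 times its value. An upper quartile scaling moved the median of all genes to -0.10 and ended the call of 1 member, and TPM ended those of Slc12a3, Slc26a9 and Kcne3 (-0.97). Aqp11 passed the call under upper quartile scaling (-1.03) and at the smaller pseudocount (-1.50), where Car11 (-1.03), Car7, Car14 and Slc4a8 passed it too. The members' median was 0.03 under TPM and 0.01 with a filter of 5 FPKM, against -0.05. A filter of 5 FPKM dropped 9 called members, and the regulators' median log2 ratio was 0.64 under it and 0.19 with no filter, against 0.39. A filter of 1 FPKM in both libraries, chosen after seeing the data, left 6 higher members and 830 lower genes among all genes, against 15 and 1346. No named ratio changed sign among called genes under these alternatives. The lowest values, such as Slc26a9, Aqp3 and Car9 in f/f, rest on few fragments.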
